A study of Homo sapiens with 2 samples.

Results

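The large ribosomal subunit assembly factors are 52 genes whose proteins build, fold and release the large (60S) subunit of the ribosome. They were taken by name from the Gene column of the deposited tables. Expression was given as RPKM, a read density that allows for transcript length and library depth, and where a symbol had several rows the most abundant one on average was used. All 52 were found among the 19096 gene symbols, and all 52 had a mean RPKM of at least 1 over both libraries, as did 10272 genes in all, here called expressed genes. The cells were P493-6, an Epstein-Barr virus-immortalized human B cell line, labelled B-cell lymphoma, that carries a c-Myc transgene which tetracycline switches off. The low c-Myc group was 1 library from repressed cells (0 h of release), and 1 library from cells released for 24 h made up the high c-Myc group. Both groups carry the transgene and the endogenous MYC gene, and the tables do not separate their reads. Each sample received synthetic RNAs in proportion to its number of cells before polyadenylated RNA was selected.

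Each group had 1 library, which leaves every difference without a replicate check and without a p-value, and each value describes only this pair of libraries. A gene was called higher or lower when the log2 ratio of high over low c-Myc, taken after adding 0.5 to each RPKM, was at or beyond 1 or -1, which is a 2-fold difference. The step size of low values gave a depth of about 103000000 reads for the low and 105000000 for the high c-Myc library. Only a preset range of depths was searched, and multiples of a depth can fit the same steps. MYC itself had RPKM values of 836 at 0 h and 2358 at 24 h. All 7 B cell markers listed for the check of cell type were present in both libraries, the lowest value being an RPKM of 26.1. All 7 were lower at 24 h on the deposited scale, with summed RPKM of 3268 and 1253. The marker values were not scaled per cell. Of 19 markers of T, NK, myeloid, erythroid, platelet, fibroblast and epithelial cells, 7 reached an RPKM of 1 in the low and 5 in the high c-Myc library, with summed RPKM of 107 and 37.2. Of these, CD3D, HBB, PF4, PPBP and KRT18 were listed at 0 in both, and ITGAM was the most abundant at 56.8 and 19.5. The part of these marker differences in the values below was not tested.

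A ribosome is made in the nucleolus from a long ribosomal RNA precursor, on to which ribosomal proteins and a large set of temporary assembly factors are loaded. For the large subunit these factors fold 28S and 5.8S RNA, dock the 5S RNA with its proteins and cut out the internal spacer ITS2. Many are then stripped off by energy-driven enzymes as the particle matures. Many of these genes are textbook targets of MYC, and their messenger RNAs are often abundant in growing lymphocytes.

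Most of the assembly genes stood higher at 24 h. Of the 52 genes, 38 were at least 2-fold higher, 14 lay between and 0 were at least 2-fold lower. Among all expressed genes 24.9% were at least 2-fold higher and 9.74% at least 2-fold lower. At least 4-fold higher were 22 of the 52, against 7.86% of all expressed genes, and at least 1.5-fold higher 44 of the 52, against 36.8%. The median log2 ratio of the 52 was 1.84 (interquartile range over genes 0.89 to 2.78), and over all expressed genes it was 0.22. The ratios ran from -0.20 for RSL24D1 to 4.42 for BOP1. Summed over the 52 genes, RPKM was 593 in the low and 2703 in the high c-Myc library, a 4.56-fold higher level. The sum over all expressed genes was 1.31-fold higher, at 228914 and 298979. Synthetic RNAs held 17.5% of the summed RPKM in the low and 2.75% in the high c-Myc library. The 52 genes held 0.259% of the summed RPKM of expressed genes in the low and 0.904% in the high c-Myc library.

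**Figure D1:**
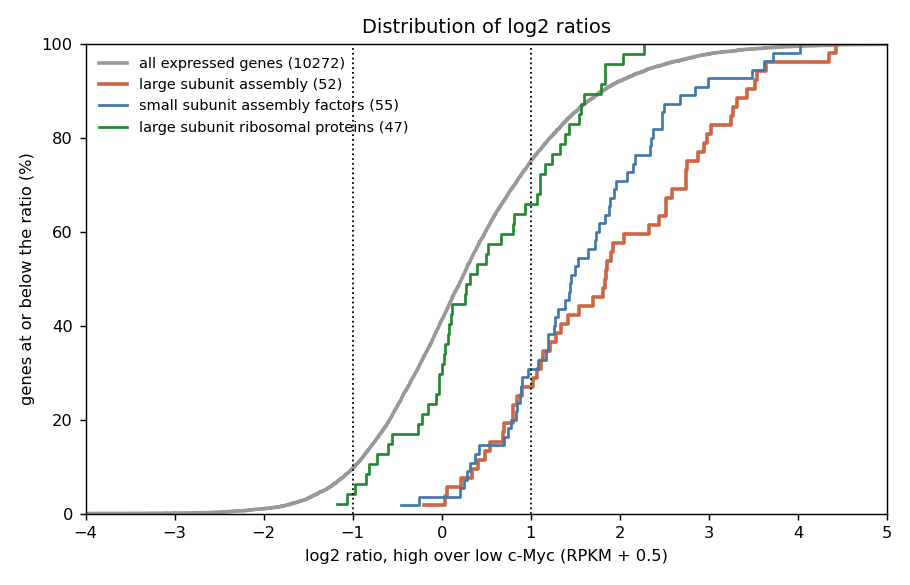
Cumulative share of genes (vertical axis, percent) at or below each log2 ratio of high over low c-Myc (horizontal axis) for the 52 large subunit assembly genes, 55 small subunit assembly genes, 47 large subunit ribosomal proteins and 10272 expressed genes. The dotted lines mark a 2-fold difference, and the assembly genes lie to the right of all expressed genes, with medians of 1.84 and 0.22.

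Before release the assembly genes were of middling abundance. Their median RPKM in the low c-Myc library was 7.72, close to the 7.57 of all expressed genes, and 30 of the 52 were under an RPKM of 10. In the high c-Myc library their median was 31.3 against 9.35 for all expressed genes, and 12 were under an RPKM of 10. The number of assembly genes among the 1000 most abundant expressed genes was 1 in the low and 15 in the high c-Myc library. The plot of each gene's levels by role shows nearly all pairs of points running to the right.

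**Figure D2:**
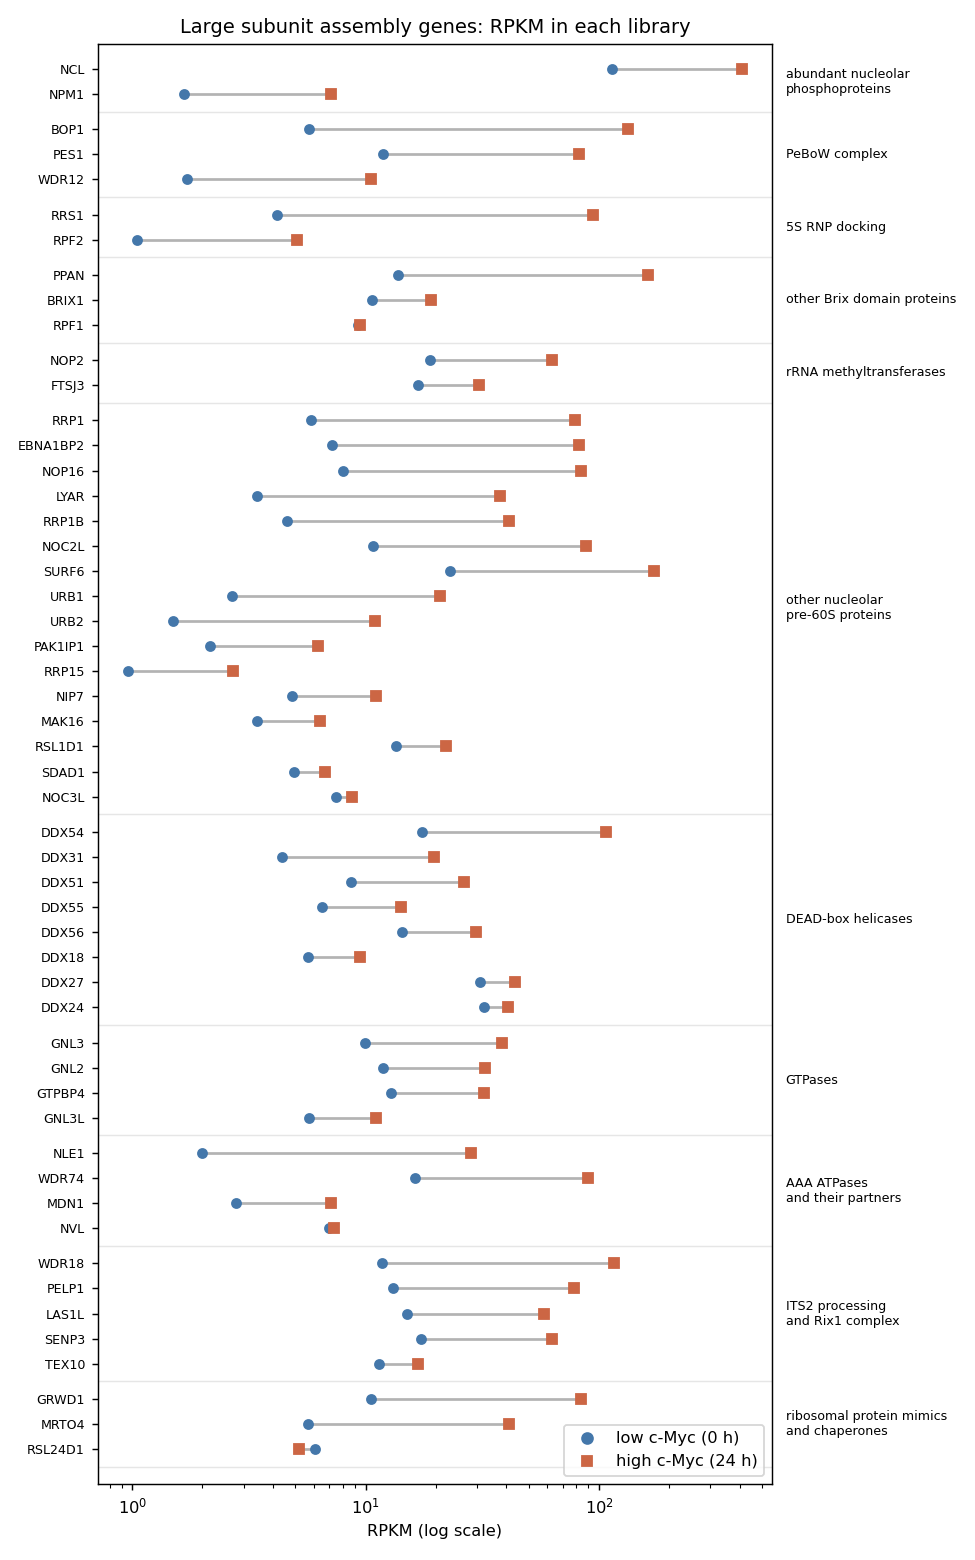
RPKM on a log axis (horizontal) of each of the 52 genes in the low c-Myc library (circles, 0 h) and the high c-Myc library (squares, 24 h), grouped by role and ordered within a role by log2 ratio. Points are single libraries, so there are no error bars. RSL24D1 is the 1 gene whose square lies to the left of its circle.

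Nucleolin and nucleophosmin, the abundant phosphoproteins of the nucleolus that bind ribosomal RNA and shuttle ribosomal proteins, had nearly the same ratio at very different listed levels. NCL (NM_005381), which encodes nucleolin, had an RPKM of 114 in the low and 408 in the high c-Myc library, a log2 ratio of 1.84. It was the most abundant of the 52 in both libraries and moved from rank 250 to rank 57 of the expressed genes. NPM1 (NM_001037738), which encodes nucleophosmin, had an RPKM of 1.67 in the low and 7.14 in the high c-Myc library, a log2 ratio of 1.81. GENCODE names 45 pseudogenes of NPM1, and the handling of reads that match several places is not stated, so the NPM1 level is uncertain. Its 3 listed transcripts gave log2 ratios from 1.26 to 1.81.

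All 3 genes of the PeBoW complex, which is needed to process the spacers around 5.8S RNA, were at least 4-fold higher. BOP1 (NM_015201), the scaffold of the complex, had an RPKM of 5.71 in the low and 133 in the high c-Myc library, a log2 ratio of 4.42. PES1, which encodes pescadillo, stood at 11.9 and 82.4, with a log2 ratio of 2.74. WDR12 (NM_018256), the third subunit, stood at 1.71 and 10.6, with a log2 ratio of 2.33. BOP1 was thus below PES1 in the low c-Myc library and above it in the high one.

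RRS1 and RPF2 work as a pair that docks the 5S RNA particle on the growing subunit, and their listed levels differed widely. RRS1 (NM_015169) had an RPKM of 4.18 in the low and 94.5 in the high c-Myc library, a log2 ratio of 4.34. RPF2 (NM_032194) had an RPKM of 1.04 in the low and 5.08 in the high c-Myc library, a log2 ratio of 1.85. The RRS1 value was 4.01 times that of RPF2 at 0 h and 18.6 times at 24 h. GENCODE names 2 pseudogenes of RPF2, and exons of RRS1 overlap another annotated gene on the same strand, so both levels are uncertain.

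The other proteins with a Brix domain, an RNA-binding fold shared with RPF2, showed a wide contrast. PPAN (NM_020230), the human counterpart of yeast Ssf1, had an RPKM of 13.7 in the low and 163 in the high c-Myc library, a log2 ratio of 3.52. BRIX1 stood at 10.7 and 19.0, a log2 ratio of 0.80. RPF1 (NM_025065) stood at 9.23 and 9.48, a log2 ratio of 0.04. The 3 genes lay within an RPKM of 9.23 to 13.7 before release. PPAN overlaps the annotated readthrough gene PPAN-P2RY11 on the same strand, and their reads cannot be told apart here.

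Of the methyltransferases of 28S RNA, NOP2, which marks cytosine, had an RPKM of 19.0 in the low and 62.7 in the high c-Myc library, a log2 ratio of 1.70. FTSJ3, which methylates ribose, stood at 16.7 and 30.5, a log2 ratio of 0.85 that is under 2-fold.

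Among 16 other nucleolar proteins of the early particle, 12 were at least 2-fold higher and 9 at least 4-fold higher, with a median log2 ratio of 2.63. RRP1 (NM_003683) had the highest ratio, with an RPKM of 5.84 in the low and 78.8 in the high c-Myc library, a log2 ratio of 3.64. Its paralog RRP1B stood at 4.63 and 41.2, a log2 ratio of 3.02. Both genes lie on the forward strand of chromosome 21 in GRCh38, at chr21:43789513-43805293 and chr21:43659548-43696079. EBNA1BP2, NOP16, LYAR, NOC2L, SURF6, URB1 and URB2 had log2 ratios between 2.52 and 3.42, and PAK1IP1, RRP15 and NIP7 between 1.11 and 1.34. SURF6 was the most abundant of the 16 in both libraries, at an RPKM of 22.9 and 171. RRP15 was the least abundant of all 52 in the low c-Myc library, at 0.962.

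The members of that role under 2-fold were NOC3L, SDAD1, RSL1D1 and MAK16. NOC3L is a partner of early particles and shares the NOC name with NOC2L. It had an RPKM of 7.47 in the low and 8.75 in the high c-Myc library, a log2 ratio of 0.22. SDAD1 stood at 4.93 and 6.71, RSL1D1 at 13.5 and 22.0, and MAK16 at 3.43 and 6.35. Their log2 ratios were 0.41, 0.69 and 0.80. For comparison, NOC2L stood at 10.8 and 88.3, so that its level was 1.44 times that of NOC3L at 0 h and 10.1 times at 24 h.

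The DEAD-box helicases, which unwind RNA with ATP, had the lowest median among the roles with at least 4 genes. Of the 8, 5 were at least 2-fold higher, and the median log2 ratio was 1.05. DDX54 (NM_024072) had an RPKM of 17.4 in the low and 107 in the high c-Myc library, a log2 ratio of 2.58. DDX31, DDX51, DDX55 and DDX56 had log2 ratios of 2.04, 1.54, 1.07 and 1.03. DDX24 (NM_020414) stood at 32.2 and 40.8, a log2 ratio of 0.34, and DDX27 at 31.0 and 43.6, a log2 ratio of 0.49. DDX18 stood at 5.66 and 9.49, a log2 ratio of 0.70. DDX24 and DDX27, the most abundant helicases before release, were thus the ones with the lowest ratios.

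Of the 4 nucleolar GTPases, which act as switches in assembly and export, 3 were at least 2-fold higher, with a median log2 ratio of 1.35. GNL3, which encodes nucleostemin, had an RPKM of 9.94 in the low and 38.5 in the high c-Myc library, a log2 ratio of 1.90. Its paralog GNL3L stood at 5.69 and 11.04, a log2 ratio of 0.90 that is under 2-fold. GNL2 stood at 11.8 and 32.4, a log2 ratio of 1.42, and GTPBP4 had a log2 ratio of 1.28.

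MDN1 and NVL are large ATPases of the AAA family that pull factors off the particle, and NLE1 and WDR74 are the proteins through which they act on it. In both pairs the partner had the higher ratio. NLE1 (NM_018096) had an RPKM of 1.99 in the low and 28.4 in the high c-Myc library, a log2 ratio of 3.54, while MDN1 stood at 2.78 and 7.14, a log2 ratio of 1.22. WDR74 stood at 16.2 and 89.8, a log2 ratio of 2.43, while NVL (NM_206840) stood at 6.99 and 7.32, a log2 ratio of 0.06. The 4 listed NVL transcripts gave log2 ratios from 0.06 to 0.14.

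The cutting of ITS2 and the Rix1 complex involve LAS1L, an endonuclease, PELP1, WDR18 and TEX10, which form the complex, and SENP3, a protease that removes SUMO from PELP1. Of these 5 genes 4 were at least 2-fold higher, with a median log2 ratio of 1.92. WDR18 (NM_024100) had an RPKM of 11.8 in the low and 116 in the high c-Myc library, a log2 ratio of 3.25. TEX10 stood at 11.4 and 16.8, a log2 ratio of 0.54, and PELP1 at 13.1 and 77.8, a log2 ratio of 2.52. LAS1L and SENP3 had log2 ratios of 1.92 and 1.83, and SENP3 shares exons with the annotated readthrough gene SENP3-EIF4A1. The 3 genes of the Rix1 core lay within 1.15-fold of each other before release and spanned 6.92-fold after it.

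**Figure D3:**
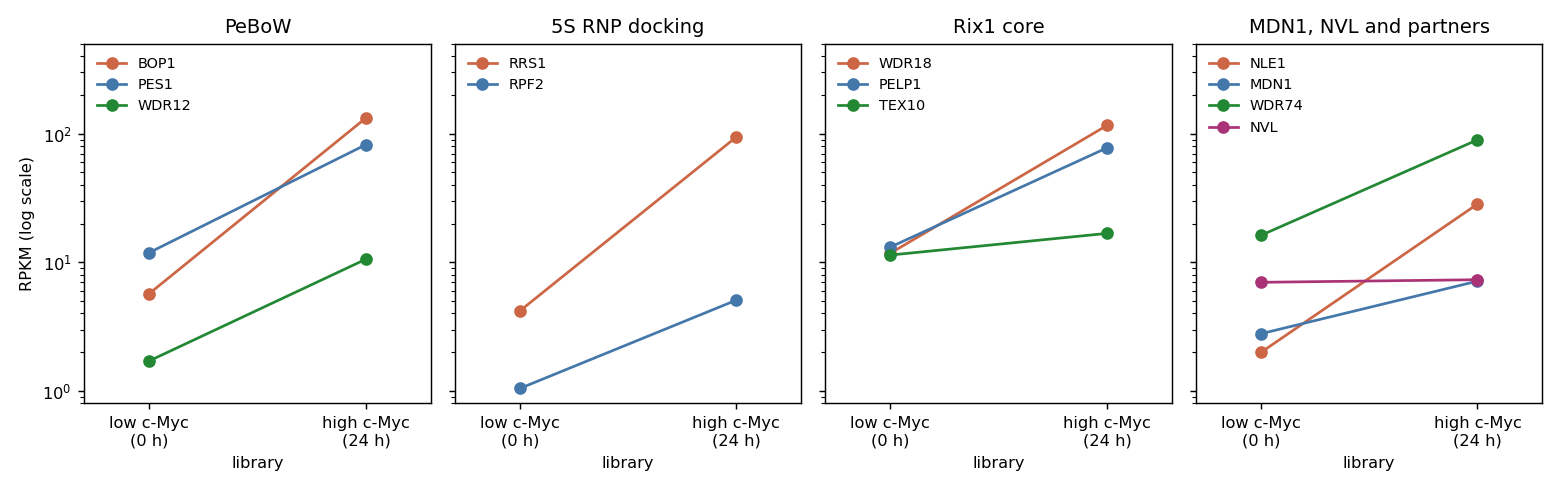
RPKM on a log axis (vertical) at 0 h and 24 h (horizontal) for genes whose proteins work together: PeBoW, the RRS1 and RPF2 pair, the Rix1 core, and MDN1 and NVL with their partners. Lines join the values of 1 gene in single libraries. WDR18, PELP1 and TEX10 start within 1.15-fold of each other and end 6.92-fold apart.

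Some assembly factors hold the place of a ribosomal protein or escort one. GRWD1, a chaperone of the ribosomal protein RPL3, had an RPKM of 10.5 in the low and 84.1 in the high c-Myc library, a log2 ratio of 2.94. MRTO4, a relative of the stalk protein RPLP0 that holds its place on the early particle, had a log2 ratio of 2.75. RSL24D1 (NM_016304), which holds the place of RPL24, stood at 6.08 and 5.21, a log2 ratio of -0.20. It was the 1 gene of the 52 with a ratio below 0 on the deposited scale, where centring on all expressed genes also put NOC3L, NVL and RPF1 below 0, and GENCODE names 9 pseudogenes of it. After a correction for transcript GC content its log2 ratio was 0.45.

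Counting error was small beside most of these differences. For 1 kb of transcript, exact binomial 95% intervals of the log2 ratio without a pseudocount lay above 0 for 49 of the 52 genes and below 0 for RSL24D1 (-0.39 to -0.05). They held 0 for RPF1 (-0.09 to 0.17) and NVL (-0.08 to 0.21), whose difference was not detectable at this depth, and the widest spanned 0.68. Reads copied by PCR do not count separate molecules, so these intervals describe counting error alone. They leave out all variation between cultures and library preparations, and they rest on the depths read from step sizes. In bulk RNA a change in the share of cells that express a gene and a change in RNA per cell cannot be told apart.

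The genes spread apart between the libraries, and the spread went with base composition. The interquartile range of log2 RPKM over the 52 genes was 1.53 in the low and 2.87 in the high c-Myc library, and over all expressed genes it was 2.48 and 2.83. Across the 52 genes, which all come from the same pair of libraries and are no replicates, transcript GC content and RPKM had a Spearman's rho of 0.44 in the low and 0.80 in the high c-Myc library. Between GC content and the log2 ratio it was 0.64, with Pearson's r of 0.65, and across 9948 expressed genes rho was 0.41. Transcript length went less with the ratio, with a rho of -0.17.

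The same can be read from bins 1 to 4 of GC content, which hold equal numbers of expressed genes. In bin 1, the most AT-rich, 6 of 13 assembly genes were at least 2-fold higher, against 8.81% of all expressed genes in that bin, with median log2 ratios of 0.80 and -0.22. In bin 2 the counts were 9 of 13 against 17.2%, and in bin 3 they were 12 of 15 against 25.9%. In bin 4, the most GC-rich, 11 of 11 were at least 2-fold higher, against 48.4%, with medians of 2.98 and 0.96. LYAR, a nucleolar zinc finger protein with a GC content of 41.7%, had the highest ratio of bin 1 at 3.27. WDR12 (40.2%) and RPF2 (38.8%) were also AT-rich.

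**Figure D4:**
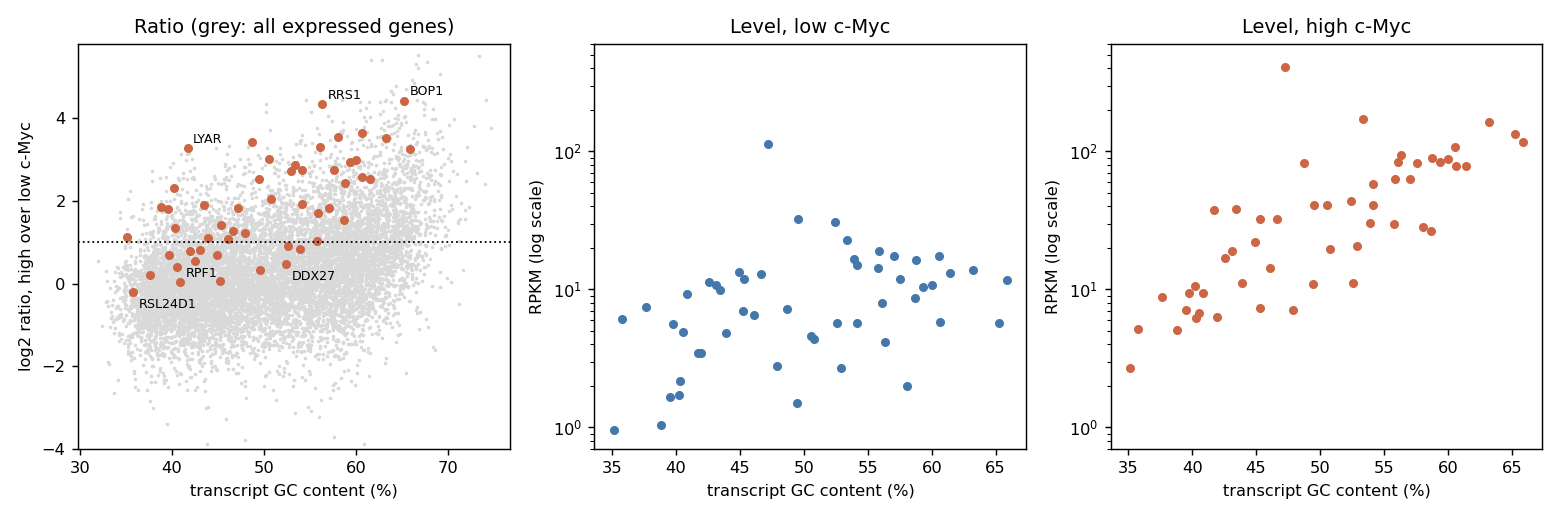
Left, log2 ratio of high over low c-Myc (vertical) against transcript GC content in percent (horizontal) for the 52 assembly genes (coloured) over 9948 expressed genes (grey), with the 2-fold line dotted. The vertical range shown is -4 to 5.8, which leaves out a few grey points. Middle and right, RPKM of the 52 genes on a log axis against GC content at 0 h and 24 h, where Spearman's rho was 0.44 and 0.80.

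After subtraction of a smooth fit of ratio on GC content over all expressed genes, 40 of the 52 genes were at least 2-fold higher, against 21.4% of the 9948 genes with a GC value. None of the 52 was 2-fold lower, against 9.13%. The median of the 52 was 1.85 and the values ran from 0.25 for NVL to 4.16 for RRS1. BRIX1, DDX18 and MAK16 passed 2-fold with the correction and DDX56 fell below it at 0.87. In PeBoW and the Rix1 core the gaps were smaller: the log2 ratios of PeBoW spanned 2.10 as deposited and 0.74 after correction, and those of the Rix1 core 2.71 and 1.13. WDR18 had 1.96 and BOP1 3.23 after correction. The gap between RRS1 and RPF2 was 2.49 as deposited and 1.82 after correction, and that between RRP1 and RRP1B 0.62 and 0.07. Gaps between the GTPases were wider: GNL3 stood above GNL3L by 1.003 as deposited and 1.31 after correction. Whether base composition moved the measurement or the RNA itself was not tested.

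Scaled per cell by the synthetic RNAs, all 52 genes were at least 2-fold higher and 0 were lower, but 97.1% of all expressed genes were also higher and 0.0876% lower. The 46 synthetic RNAs that reached an RPKM of 1 in both libraries had a median log2 ratio of -2.56 (interquartile range -2.84 to -2.17), and it was subtracted from each ratio. The median per-cell log2 ratio of the 52 was 4.39, a 21.0-fold higher level, and that of all expressed genes was 2.78, a 6.86-fold higher level. The per-cell values ran from 5.11-fold for RSL24D1 to 126-fold for BOP1. NCL was 21.1-fold higher per cell, and RPF1 and NVL, which were level on the deposited scale, had per-cell log2 ratios of 2.59 and 2.62. Of the 52, 46 were at least 8-fold higher per cell, against 41.6% of all expressed genes. In the column that the authors deposited renormalized to the synthetic RNAs, the median log2 ratio of the 52 was 4.19, with a range of 1.98 to 6.78.

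Most lists of neighbouring steps in ribosome production had lower medians, the small nucleolar RNP list being the exception, and no difference between lists was tested. Of 21 other nucleolar factors of the large subunit, 11 were at least 2-fold higher and 0 lower, with a median log2 ratio of 1.03, from -0.54 for NSA2 to 3.94 for MYBBP1A. Of 11 measured genes of export and cytoplasmic maturation of the large subunit, 4 were higher and 0 lower, with a median of 0.84. SBDS, which helps to release EIF6 from the subunit, was lowest at -0.16 and PA2G4 highest at 2.81. SPATA5, a twelfth gene of that list, did not reach a mean RPKM of 1.

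Of 55 small subunit assembly genes 38 were at least 2-fold higher and 0 lower, with a median log2 ratio of 1.45, from -0.46 for DDX52 to 4.02 for RRP9. Of 9 genes listed for the small nucleolar RNPs, which guide modification of ribosomal RNA, 8 were higher, with a median of 2.15. Their log2 ratios ran from -0.12 for NOP10 to 3.07 for NHP2. The 9 include NOLC1 beside the core proteins. Of 17 genes of the RNA polymerase I machinery, which makes the precursor, 9 were higher and 0 lower, with a median of 1.26. Their log2 ratios ran from -0.45 for TAF1B to 4.44 for CD3EAP, a subunit of the polymerase. Of 47 large subunit ribosomal proteins, the building blocks that the assembly factors place, 16 were higher and 2 lower, with a median of 0.32, close to the 0.22 of all expressed genes. Many of them have near-identical copies, so their values are uncertain. Their RPKM summed to 8413 in the low and 11336 in the high c-Myc library, a 1.35-fold higher level. The sum of the assembly genes was 4.56-fold higher and that of all expressed genes 1.31-fold.

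In the GENCODE annotation of GRCh38 the 52 genes lie on 21 chromosomes. Exons of 25 of them overlap exons of a gene on the other strand, NLE1, EBNA1BP2, NOP16 and URB1 among them. On the same strand 7 overlap one, WDR74, GRWD1, NOP2 and SDAD1 among them. Whether reads were counted by strand is not stated, so reads of such neighbours cannot be told apart here. GENCODE names pseudogenes of 15 of the 52, among them DDX18 (5), SDAD1 (4), NCL, PES1 and NOC2L (2 each). The levels of all these genes are uncertain too. Small nucleolar RNAs lie on the same strand within 5 of them: NCL (chr2:231453531-231483641) holds SNORA75, SNORD20 and SNORD82, and GNL3 (chr3:52681156-52694492), PPAN, URB1 and DDX55 hold others. For 8 of the 52 a protein-coding gene starts on the opposite strand within 1000 bases upstream, and 5 of those neighbours were expressed. Distances were taken between the outermost ends of the annotated genes, and neighbours that overlap a member's start were not counted. The outermost end need not be the start in use: that of WDR12 is chr2:203014798, and its RefSeq promoter lies at chr2:202911624-202911923. LYAR had a log2 ratio of 3.27 and its neighbour ZBTB49, whose start lies 82 bases away, one of 0.38. BOP1 stood at 4.42 and its neighbour HSF1 at 1.40, and URB2 at 2.52 and its neighbour TAF5L at 0.67. The order was the opposite for DDX51 at 1.54, beside the small subunit gene NOC4L at 2.47, and for DDX24 at 0.34, beside IFI27L1 at 0.99.

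Promoter sequences show how often these genes hold the site that MYC binds with its partner MAX. The motif searched was CACGTG, the canonical E-box, which reads the same on both strands. The windows were 300 bases, from 250 before to 50 after the RefSeq start sites in GRCh38.p14. A promoter was found for 44 of the 52 genes, with 54 start sites. BOP1, DDX18, MAK16, RPF2, RRP1B, RRS1, RSL1D1 and URB2 were not matched. The motif was in 17 of the 44 genes (38.6%), against 13.4% of 7717 matched expressed genes and 8.77% of all 27305 matched genes. By window, it was in 33.3% of the 54 promoters of these genes, 9.76% of 11316 promoters of expressed genes and 7.26% of all 35116 promoters. Of the 17 genes, 14 held it between 75 bases before the start and the end of the window, a span set after the positions were seen. That is 82.4% of these genes with an E-box, against 54.2% of expressed genes with one.

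Genes with and without the motif overlapped in their ratios. Of the 17 with it 14 were at least 2-fold higher, with a median log2 ratio of 2.04. Of the 27 without it 19 were, with a median of 1.54. Among all expressed genes 24.9% were at least 2-fold higher, and they were not split by the motif. The windows around the site are shown for the 4 genes with the highest ratios among the 17 and the 4 with the lowest, so that the letters around the site can be compared. MDN1, the highest of those 4, was itself over 2-fold higher. Each line reads 5′ to 3′ on the strand of the gene, with the E-box in capitals.
NLE1 (chr17:35142274-35142303, minus strand): ctctttctcctcCACGTGgggacgcaggat
EBNA1BP2 (chr1:43172790-43172819, minus strand): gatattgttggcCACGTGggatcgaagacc
LYAR (chr4:4290068-4290097, minus strand): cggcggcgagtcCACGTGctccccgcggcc
SURF6 (chr9:133336395-133336424, minus strand): ggagcacaggaaCACGTGcgggaccggggt
MDN1 (chr6:89819750-89819779, minus strand): cgtgtgctcaccCACGTGtggtgcccctct
TEX10 (chr9:100352955-100352984, minus strand): gcgggctgcgatCACGTGagcacagcaggg
SDAD1 (chr4:75991156-75991185, minus strand): tacatgctaacaCACGTGaaaaaatttaca
NOC3L (chr10:94362903-94362932, minus strand): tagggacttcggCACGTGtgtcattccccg
The log2 ratios of these genes were, in the same order, 3.54, 3.42, 3.27, 2.87, 1.22, 0.54, 0.41 and 0.22. EBNA1BP2 and MDN1 each hold a second E-box that is not shown.

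NLE1 and NOC3L carry the 6 letters at nearly the same place, 13 and 20 bases after the start, with ratios at opposite ends. The upstream sequences of TEX10 and DDX31, whose E-boxes begin 30 and 22 bases before a start site, are shown at greater length. TEX10 had a log2 ratio of 0.54 and DDX31 one of 2.04, the median of the 17.
TEX10 (chr9:100352943-100353192, minus strand): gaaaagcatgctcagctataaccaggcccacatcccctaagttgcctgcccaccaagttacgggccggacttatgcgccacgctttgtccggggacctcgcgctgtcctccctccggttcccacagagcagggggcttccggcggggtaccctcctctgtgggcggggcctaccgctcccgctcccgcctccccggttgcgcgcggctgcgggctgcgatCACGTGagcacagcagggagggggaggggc
DDX31 (chr9:132669984-132670233, minus strand): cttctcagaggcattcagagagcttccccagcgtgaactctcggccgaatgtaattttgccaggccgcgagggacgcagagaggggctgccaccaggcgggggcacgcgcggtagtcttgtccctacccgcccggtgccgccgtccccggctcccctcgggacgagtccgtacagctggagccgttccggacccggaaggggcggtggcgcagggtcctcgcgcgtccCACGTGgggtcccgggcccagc
Both stretches are GC-rich, at 68.8% and 70.8%. A match is a description of the letters and no binding was measured here. Which start site the cells used is not known from the tables.

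**Figure D5:**
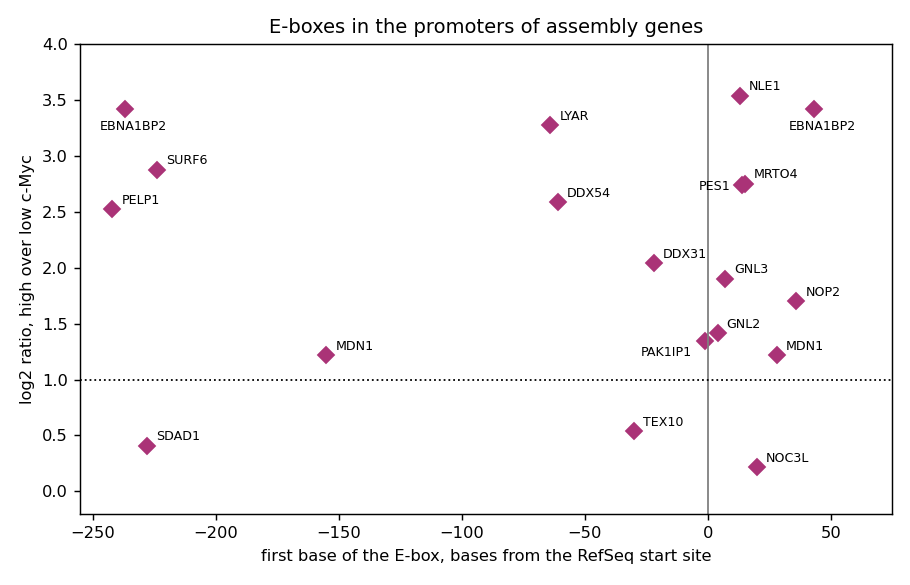
Log2 ratio of high over low c-Myc (vertical) against the position of each of the 19 E-boxes found in 17 assembly genes, in bases from the RefSeq start site (horizontal). The dotted line marks 2-fold. Most points lie near the start site, and they span ratios from 0.22 for NOC3L to 3.54 for NLE1.

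Other motifs were searched on both strands. CACGCG, a variant E-box, was in 15 of the 44 genes (34.1%), in 23.1% of matched expressed genes and in 13.5% of all matched genes. CGGAAG, the core of ETS factor sites, was in 27 (61.4%), in 41.3% and in 22.6%. TATAAA, the letters of the TATA box, was in 2 (4.55%), RPF1 and DDX31, in 7.79% and in 13.99%. Both of these matches were on the strand opposite to the gene, at -171 and -165 from a start site. They are matches of letters and were not shown to be TATA boxes. By window the shares were, in the same order, 27.8%, 53.7% and 3.70% of the 54 promoters. They were 17.5%, 31.8% and 5.81% of the promoters of expressed genes, and 11.4%, 19.5% and 11.5% of all promoters. CACGTG shares no overlap with the other motifs, while CACGCG and CGGAAG can share their CG and such matches were counted under both.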

How the data were processed

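RNA sequencing of 1 low and 1 high c-Myc library of P493-6 cells was used. The authors deposited RPKM values per RefSeq transcript, and beside it a spike-normalized RPKM, per the file headers. Bowtie and genome build hg18 are named, without a Bowtie version, per the submitters' processing notes. How reads were counted, how multiply matching ones were handled and whether strand was used are not stated there, although the libraries kept strand per the labels' protocols.

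Ratios used log2(RPKM + 0.5), which understates changes of low genes. No test was run, since each group had 1 library. Depth was read from steps between low values. Of 2511 and 1642 transcripts with up to 10 reads, 50.9% and 48.1% gave a read number at most 0.05 from a whole one. Evenly spread values would give 10%. The depth was chosen as the best fit to these same values, so the shares do not test it. For GC content, GENCODE 29 transcripts were matched by RefSeq accession (96.8% of expressed genes, all 52 assembly genes), whose lengths and ends can differ from the authors' models. It was corrected by lowess with a span of 0.3. Promoters came from RefSeq, GRCh38.p14.

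The genes, roles and lists were chosen with earlier results of these data known. Full values were given by rule to the highest and lowest gene of each role, to genes under 2-fold and to paralogs, for at most 30 genes. Those of PES1, PELP1, MDN1, WDR74, NOC2L and SURF6 were added after their values were seen. Comparisons of protein sequence were not made. The calculation was run on simulated reads with planted changes, which checks the arithmetic alone. The simulation left out variation between cultures, PCR copies, base composition and reads that match several places. The lowess came from statsmodels 0.14.6 and the intervals from scipy 1.17.1, with pandas 2.3.3, numpy 2.4.6 and matplotlib 3.10.9 under Python 3.11.15.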

Additional observations from a re-analysis of the deposited data

How the results depend on the processing

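The count of 38 assembly genes at least 2-fold higher stayed between 32 and 40 of 52 under other pseudocounts, row choices, scalings and the GC correction, and was 33 of 46 with a mean RPKM of at least 5. It was 22 under a 4-fold rule and 44 under a 1.5-fold rule, which 7.86% and 36.8% of all expressed genes passed. In none of these was a gene 2-fold lower. The median log2 ratio of 1.84 became 1.61 when centred on all expressed genes, 1.52 when both libraries were set to 1 RPKM sum with synthetic RNAs left out and 1.40 with quantile normalization, and those scalings moved NOC3L, NVL and RPF1 below 0, quantile normalization also DDX24 and DDX27. DDX55, DDX56 and NIP7 fell under 2-fold in all 3. Per cell, all genes kept in an alternative stayed at least 2-fold higher, and the median of 4.39 was 4.19 in the authors' renormalized column. Without the 21 genes that have named pseudogenes or overlapping exons on the same strand, an alternative added after the data were seen, 22 of 31 were higher as deposited, with a median of 1.90, and 31 of 31 per cell. With overlaps on the other strand left out too, also added then, 13 genes remained, of which 9 were higher as deposited (median 1.54) and 13 per cell (median 4.10). No paired analysis was possible because each group had 1 library. For the same reason no library could be left out. At the depths read from step sizes, the counting intervals held 0 only for the smallest differences, those of RPF1 and NVL. Another depth would change the width of these intervals.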
